A study of Mus musculus with 4 samples.

Results

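Macrophages carrying transcripts of the C1q complement genes together with Folr2, Mrc1, Cbr2 or Cd163 were examined among CD45+ cells of the mouse mammary gland. CD45 is a surface protein of white blood cells. A cell was a member if it held at least 4 unique molecular identifiers (UMIs, each standing for 1 captured RNA molecule) of C1qa, C1qb and C1qc together, at least 2 of Folr2, Mrc1, Cbr2 and Cd163 together, and 0 of the T cell genes Cd3e, Cd3d and Cd3g and of the B cell genes Cd79a and Ms4a1. This chose 1534 of 42781 cells: 233 of 21604 in the library of the earlier year, as the 2 library names give the years, and 1301 of 21177 in that of the later year. Values given as a pair by library have the earlier first. Members were thus chosen by measured values, so the levels of those 7 positive genes describe the choice and are not a finding. Cells that passed the C1q minimum and the exclusions but held 0 or 1 UMI of Folr2, Mrc1, Cbr2 and Cd163 are called other C1q cells (2040 cells, 1505 and 535 by library) and are used for comparison.

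Macrophages of this type are known from the stroma and fat of the mammary gland, where they lie around ducts and vessels and take up debris, proteins and iron. Folr2 encodes folate receptor beta, Mrc1 the mannose receptor CD206 that internalizes glycoproteins, Cd163 the receptor for haemoglobin bound to haptoglobin, and Cbr2 a carbonyl reductase. A different population, the ductal macrophages, sits between the epithelial layers and is known for Itgax, Cx3cr1 and Mmp12. C1q is the recognition subunit of the classical complement pathway and is made by most tissue macrophages.

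The series covers nulliparous mice (never pregnant), gestation, lactation, involution (the regression of the gland after weaning) and a later regression stage, with Balb/c and germ-free mice added. Each animal group was stained with a hash tag, an antibody against surface proteins that bears a DNA barcode of 15 bases, and the groups were pooled into 1 droplet library a year. In the tag sheets HT4 stands for Nulliparous, HT5 for Gestation and HT6 for Lactation, and in the later year HT12 also stands for GF, HT10 for Balb/c, HT9 for Regression and HT8 for Involution. HT2 is called Germ-free in both years, but the title of the earlier library lists involution and no germ-free mice, and that of the later lists a single GF group, which the sheet gives to HT12. HT2 is therefore given by its tag, with its name in dispute, and enters no comparison of stages. Names present in both libraries are given as the earlier or the later Gestation, Lactation or HT2. HT4, also listed for the later library, had 1 count there. The sources used here do not give strains other than Balb/c, ages, days within a stage, how many animals stand behind a tag, or the gland stage for Balb/c and for GF.

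The barcodes that assign a member to its sample are shown 5′ to 3′, with capitals marking each base that differs from HT2, the tag in dispute.
HT2: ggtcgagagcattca
HT4: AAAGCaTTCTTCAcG
HT5: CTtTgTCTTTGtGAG
HT6: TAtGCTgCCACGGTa
HT8: TAtAgaACgcCAGGC
HT9: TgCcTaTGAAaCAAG
HT10: CCGATTgTAACAGAC
HT12: CTGcAaATATaACGG
Any 2 of these 8 tags differed at 9 to 15 of their 15 bases, and HT2 differed from the others at 10 to 14.

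The kept cells held a median of 1599 and 3049 UMIs by library. Members held medians of 2701 and 4563 UMIs, against 2070 and 3745 in other C1q cells. A single tag was assigned to 150 and 847 members, more than 1 tag to 49 and 334, and no tag to 34 and 120. The libraries shared 139 cell barcodes, 1 of them a member in both. Scrublet, a doublet caller, marked 6 and 38 members (2.58% and 2.92%), which were kept in the main values. A single gene entry, CT010467.1, took 19.1% of the members' UMIs in the earlier HT2, the highest value, and 5.58% in Regression, the lowest. The years differ in all these measures, so levels are compared within a library or in a fit with the library year as a block. Below, levels are UMIs per 10000 UMIs of the cells summed, and intervals are 95% and cover counting error only.

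Mrc1 carried the selection. It had a UMI in 94.4% and 99.2% of members, while Folr2 had one in 44.6% and 64.3%, Cbr2 in 53.2% and 69.7%, and Cd163 in 32.6% and 54.7%. Mrc1 was the only 1 of the 4 seen in 72 members of the earlier library (30.9%) and 251 of the later (19.3%), so not every member carries a sign of Folr2. In T cells (at least 2 UMIs of the Cd3 genes), which should lack these genes, Mrc1 had a UMI in 2.05% and 9.5% and Folr2 in 0.312% and 3.67%, at median depths of 1769 and 3269 UMIs. Across the 11 tag samples, Folr2 stood at 1.65, 5.81 and 12.3 UMIs per 10000 in members (lowest, median and highest), with the lowest in Nulliparous and the highest in Balb/c. By library it ran from 1.65 to 6.94 and from 3.73 to 12.3, so these extremes also differ in year. Mrc1 ran from 5.8 in the earlier Gestation to 23.8 in the later HT2. In the earlier year every tag sample except HT2 was below the lowest value of the later library for Mrc1 (14.6 in Lactation).

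Just inside the threshold stood 46 and 53 members with exactly 2 selecting UMIs, and just outside it 164 and 146 cells with 1. Pf4, a chemokine also called platelet factor 4, was at 4.96 and 1.02 UMIs per 10000 in the former and 2.23 and 1.44 in the latter, but 26.2 and 35.8 in members with 4 or more. Both sides of the threshold were thus far below the members well inside it (147 and 1176 had 4 or more selecting UMIs). A T or B gene UMI kept out a further 69 and 624 cells that met the other criteria. In the later year the 342 cells kept out by a T gene alone had a median of 7379 UMIs and Pf4 at 21.5 per 10000, and what they are was not tested.

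Among the stages of each library, members were rarest in gestation, and in the later year most frequent after weaning. In the earlier year they made up 0.696% (41 of 5887, interval 0.50 to 0.944%) of tagged cells in Nulliparous, 0.26% (12 of 4618, interval 0.134 to 0.453%) in Gestation and 2.16% (55 of 2548, interval 1.63 to 2.8%) in Lactation, with 1.43% (42 of 2930, interval 1.03 to 1.93%) on HT2. In the later year the share was 1.58% (54 of 3420, interval 1.19 to 2.06%) in Gestation and 3.77% (30 of 795, interval 2.56 to 5.34%) in Lactation. It then stood at 9.38% (212 of 2260, interval 8.21 to 10.7%) in Involution and 6.97% (173 of 2481, interval 6.0 to 8.05%) in Regression. The intervals of Involution and Regression lay above those of Gestation and Lactation. They did not overlap each other, but did with cells thinned to 1000 UMIs (6.29 to 8.52% and 4.71 to 6.59%).

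Balb/c and GF had 1.19% (24 of 2016, interval 0.764 to 1.77%) and 3.67% (80 of 2177, interval 2.92 to 4.55%), and HT2 had 15% (274 of 1832, interval 13.4 to 16.7%), the highest of the 11 tag samples. With every cell thinned to 1000 UMIs the shares were lower or level (0.159% in the earlier Gestation, 1.34% in the earlier Lactation, 1.07% in the later Gestation, 7.35% in Involution and 12.4% on the later HT2), and some neighbours changed places. Balb/c (1.19%) then stood above the later Gestation and the earlier HT2 (0.902%), and GF (2.63%) above the later Lactation (2.55%). The thinned values leave out 240 to 1571 shallower cells a sample in the earlier year and 12 to 85 in the later year.

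Lactation over Gestation, the only pair of stages with a tag in both libraries, gave a ratio of shares of 8.31 (4.46 to 15.5) in the earlier year and 2.39 (1.54 to 3.71) in the later. Both thus had the higher share in Lactation, and an exact permutation test of 2 samples against 2 cannot pass 0.05, so none was run. Calls for the later Lactation rested on a median of 6 tag counts per member, against 12 to 57 in the other samples of that library. By a plain rule for tags the share there was 3.0%. A share of CD45+ cells also moves with the number of other white blood cells, and their part in the ratio was not tested.

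Among C1q cells the share differed more between the 2 libraries than its intervals. Members made up 2.64% to 35.9% of C1q cells in the 4 tag samples of the earlier library (lowest in Gestation, highest on HT2) and 25.8% to 88.4% in the 7 of the later (lowest in Balb/c, highest on HT2). In Gestation the value was 2.64% (1.37 to 4.57%) in the earlier year but 56.2% (45.7 to 66.4%) in the later, and at 1000 UMIs a cell 1.53% and 39.6%. Other C1q cells were 9.57% of tagged cells in the earlier Gestation and 1.23% in the later Gestation, so the same tag name held different mixtures of C1q cells in the 2 libraries. Library, year and animals differ together and cannot be told apart.

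**Figure D1:**
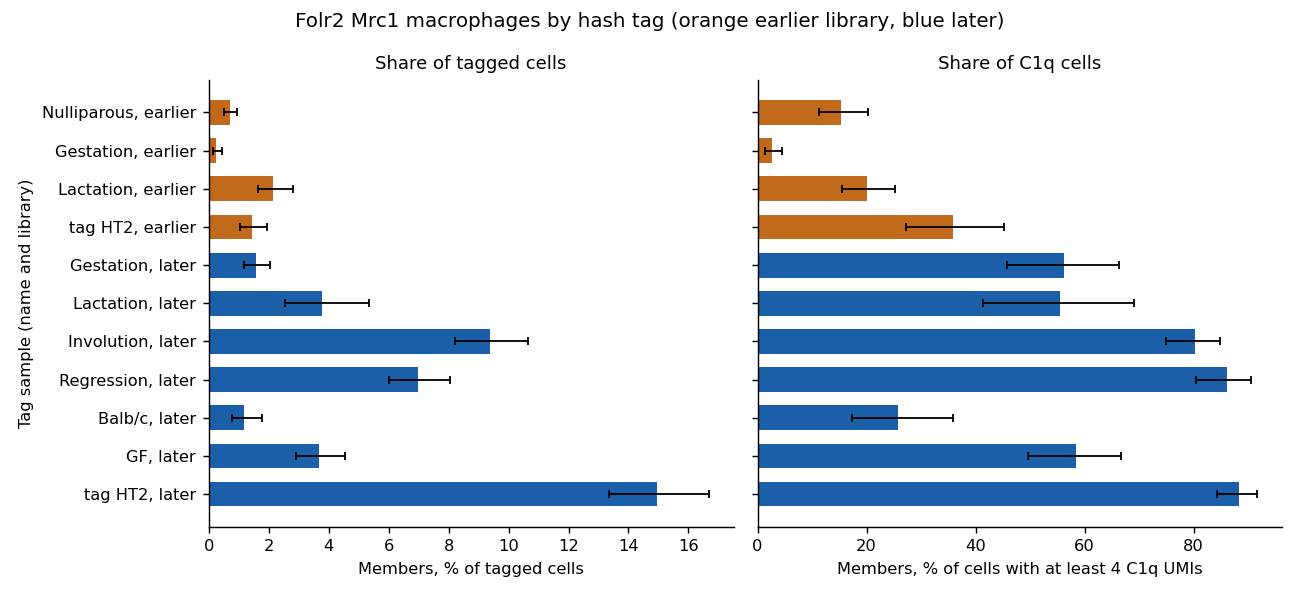
Members as a percentage of tagged cells (left) and of C1q cells (right) in each of the 11 tag samples, as bars with exact binomial 95% intervals, orange for the earlier library and blue for the later. The left panel runs from 0.26% in the earlier Gestation to 15% on the later HT2, and in the right panel the samples of the earlier library lie between 2.64% and 35.9%.

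Among the 15 genes with the most UMIs in members (ribosomal and mitochondrial entries and CT010467.1 aside) were Cd74 and the MHC class II chains H2-Aa, H2-Ab1 and H2-Eb1, which present peptides to helper T cells. The 15 also held Apoe (lipid transport), Retnla (the secreted protein RELM alpha), Lyz2 (lysozyme), the ferritin chains Fth1 and Ftl1, the protease Ctsb and the protease inhibitor Cst3, C1qa, and Malat1, Tmsb4x and Actb. Apoe was at 140.1 and 122 UMIs per 10000 in the 2 libraries, Cd74 at 96.5 and 155, and Retnla at 69.4 and 60.5. The macrophage label held: Csf1r, the receptor for the growth factor that macrophages depend on, had a UMI in members at 80.3% and 91%, and Adgre1, which encodes F4/80, at 56.2% and 78.9%. In T cells the values were 5.9% and 10.8% for Csf1r and 2.53% and 5.95% for Adgre1. Adgre1 was at 2.99, 4.31 and 5.27 per 10000 in members (lowest, median and highest of 11 tag samples) and 1.23, 1.71 and 2.25 in other C1q cells, with no overlap.

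Genes of stromal macrophages that the rule did not use went with the members. Of 28 such genes, 19 were higher in members than in other C1q cells of the same tag sample in all 11 samples, and 0 were lower in all 11. Over the 11924 genes with at least 20 UMIs in these cells, 2.60% were higher in all 11 and 2.00% lower in all 11. The rule itself drew this contrast, so these counts describe the members and are not a test. The 28 genes summed to 79.1 to 238 UMIs per 10000 in members (median 155) and 9.49 to 33.6 in other C1q cells (median 14.7).

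Pf4 was at 18, 19.2, 21.8 and 14.9 UMIs per 10000 in members of Nulliparous, Gestation, Lactation and HT2 in the earlier year. In the later year it was at 38.2 in Gestation, 19.7 in Lactation, 33.7 in Involution, 31.3 in Regression, 41 in Balb/c, 24.6 in GF and 36.4 on HT2. Other C1q cells stayed at 0.511 to 1.46, so the 2 sets did not overlap. Selenop, the plasma selenium carrier, was at 16.8, 29.8 and 33.1 in members and 1.94, 4.0 and 8.61 in other C1q cells (lowest, median and highest). Maf, a transcription factor of resident macrophages, was at 6.52, 13.8 and 15.9 against 0.502, 0.803 and 2.75. For both genes the lowest member sample was above the highest sample of other C1q cells.

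Lectins and secreted factors followed. Mgl2 and Clec10a, which encode galactose-binding lectins, had medians of 8.81 against 0.484 and 6.43 against 0.66 UMIs per 10000 (members against other C1q cells). F13a1, the A chain of clotting factor XIII, had 9.24 against 0.746, Gas6, a bridge between dying cells and the receptors Axl and Mertk, 3.4 against 0.0533, and Igf1, a growth factor for the mammary epithelium, 3.05 against 0.201. These 5 genes were higher in members in 11 of 11 samples. Lyve1, the hyaluronan receptor, was at 0 to 4.76 in members and no higher than 0.0143 in other C1q cells, and Ccl8, a chemokine, at 0 to 18.7 and no higher than 0.336. Both were at 0 in the 12 members of the earlier Gestation, where 3 counts are worth 0.916 per 10000. Timd4, an uptake receptor of long-lived resident macrophages, was low (0 to 1.09, with a UMI seen in 2.58% and 17.7% of members), and Vsig4 was seen in 0% and 0.538%.

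Ductal and lipid-associated genes went the other way in part. Of 20, 10 were lower in members in all 11 tag samples (among them Mmp12, Itgax, Cx3cr1, Cd9, Acp5, Axl, Olfml3, Dnase1l3 and Mmp14) and 0 were higher in all 11. Mmp12, an elastase, was at 0.0857 to 1.22 UMIs per 10000 in members and 1.65 to 16.8 in other C1q cells, and Itgax, the CD11c chain, at 0.273 to 1.42 and 2.03 to 4.96, without overlap in either gene. Cx3cr1, the fractalkine receptor, was at 0.553 to 4.41 and 2.74 to 6.49, with overlap between samples but none within one. Apoe, the gene of this list with the most UMIs, was higher in members in 4 samples and lower in 7. Spp1 and Gpnmb were near 0 in members (0 to 0.409 and 0 to 0.079).

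The 10 MHC class II genes summed to 266 to 441 UMIs per 10000 in members and 339 to 601 in other C1q cells. Members were lower in 11 of 11 samples, with overlap between samples. The lowest member values were on the later HT2 (266) and in the earlier Lactation (267) and the highest in Involution (441). Cd74, H2-Ab1 and H2-Eb1 were each lower in members in 11 of 11 samples, H2-Aa in 8.

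**Figure D2:**
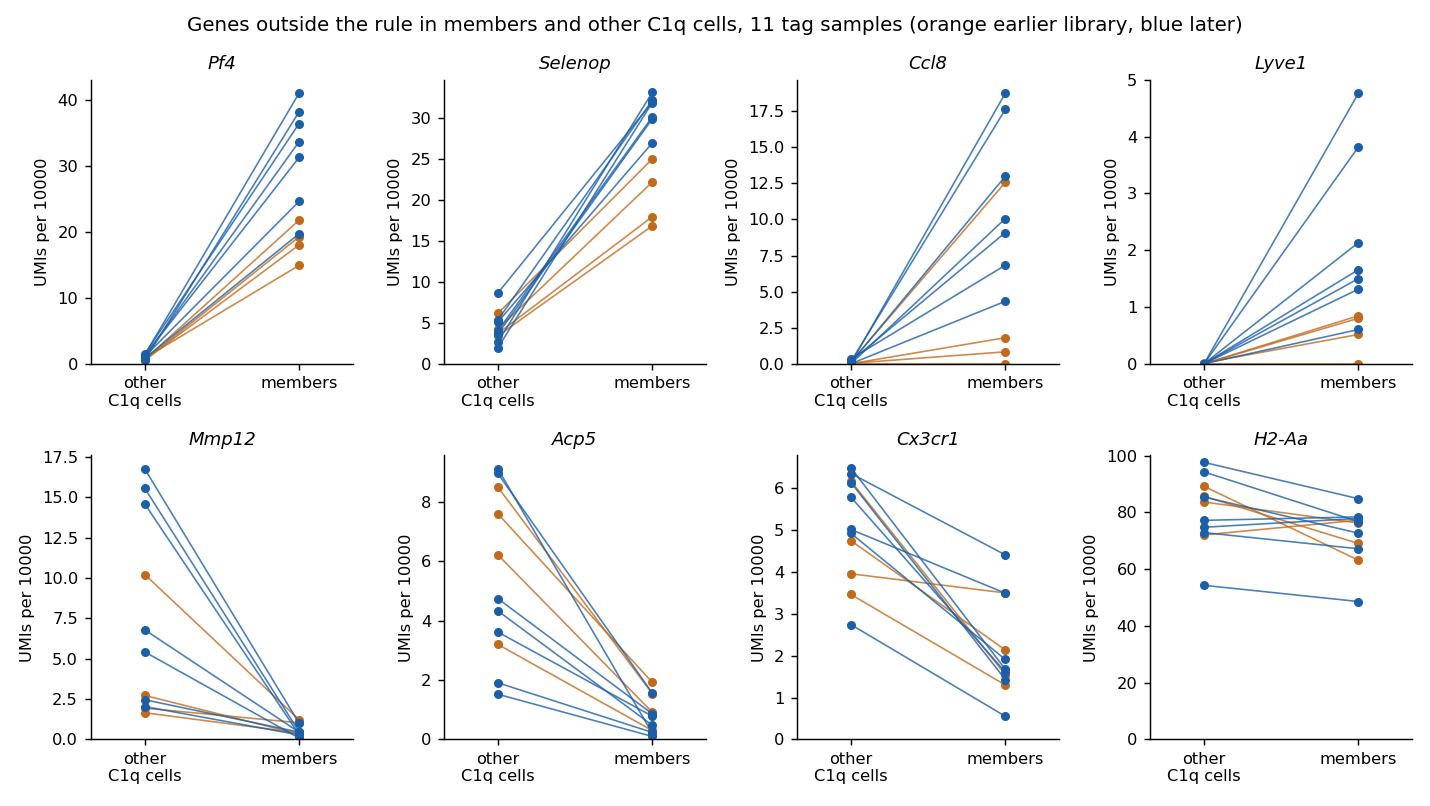
Levels in UMIs per 10000 (vertical axes, linear from 0) of 8 genes outside the rule, with a line joining other C1q cells to members of the same tag sample (orange earlier library, blue later, 11 samples). Pf4 and Selenop lie higher and Mmp12, Acp5 and Cx3cr1 lower in members in every sample shown, Ccl8 and Lyve1 are at 0 in members of the earlier Gestation, and H2-Aa goes down in 8 of 11.

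The lists for uptake, iron, secretion and regulation followed the same contrast in part. In the list for scavenging and uptake of dying cells, Stab1, Gas6, Pros1, Dab2 and Ctsb were higher in members in 11 of 11 samples and Axl, Itgav and Itgb5 lower in 11 of 11. Dab2, an endocytic adaptor, was at 3.7, 10.4 and 11.6 UMIs per 10000 in members and 0.268, 1.27 and 2.98 in other C1q cells. Ctsb, a lysosomal protease, was at 17.2 to 37.8 and 9.97 to 27.2. Of 12 iron genes, Trf (transferrin), Tfrc (its receptor) and Blvrb (a biliverdin reductase) were higher in 11 of 11, with Trf at 5.1, 10.6 and 14.1 against 1.64, 2.61 and 3.75, whereas the ferritin gene Fth1 was lower in 10 of 11 (32.1 to 60.5 against 43.5 to 100.1). Hmox1, haem oxygenase, was higher in 10 of 11. It ran from 0.611 in the earlier Gestation, below the 0.916 that 3 counts are worth there, to 3.46 on the later HT2.

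Of 21 chemokine genes, Pf4 and Ccl7 were higher in members in 11 of 11 samples, and Ccl2, Ccl6, Ccl8, Ccl9, Ccl24 and Cxcl12 in 10. Ccl6 was at 7.64, 17.4 and 24.7 against 1.56, 3.5 and 20.0 UMIs per 10000. Ccl3, Ccl4 and Cxcl16 were lower in 11 of 11, Ccl4 at 0.30 to 2.77 against 3.51 to 29.4, and so was the inflammatory cytokine Il1b (0.386 to 2.93 against 3.73 to 13.7). Among 20 growth factors and cytokines Igf1, Gas6, Grn and Tnfsf12 were higher in 11 of 11, Grn (progranulin) at 7.72, 15.1 and 21.6 against 2.65, 4.28 and 9.01. Il10 was near 0 (0 to 0.158), with a UMI in 0.429% and 3.84% of members.

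Of 20 transcription factor genes, Maf, Zeb2, Klf2, Klf4, Mef2c and Tcf4 were higher in members in 11 of 11 samples. Irf8 was lower in 9. Of 18 lipid genes, Pltp, a phospholipid transfer protein, and the cholesterol exporter Abca1 were higher in 11 of 11, Pltp at 2.75, 11.1 and 16 against 0.212, 1.58 and 8.69. Among complement genes Cfp and C3ar1 were higher in 11 of 11. Of 16 interferon-stimulated genes Ifi27l2a, Ifi204 and Ifitm3 were, with Ifi27l2a at 11 to 34.5 against 5.02 to 18.3. The hormone receptors Prlr, Esr1 and Pgr, for prolactin, oestrogen and progesterone, stood at 0 to 0.553, 0 to 0.205 and 0 to 0.0677 in members. The immediate early and heat shock list, which can move with tissue handling, summed to 27.5 (the earlier Gestation) to 111 (Regression) and was higher in members in 3 of 11. Its part in these levels was not tested.

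Members were not uniform. With 1, 2, 3 and 4 of the selecting genes seen, members numbered 74, 63, 60 and 36 in the earlier year and 252, 193, 315 and 541 in the later. In the same order, Pf4 in the later year stood at 5.56, 17, 34.4 and 48.1 UMIs per 10000 and Lyve1 at 0.0551, 0.212, 3.03 and 4.14. Ccr2, the receptor that draws monocytes out of the bone marrow, ran the other way: 11.9, 8.09, 3.63 and 2.11. The steps of the earlier library had the same direction from the first to the last for these 3 genes. Median depths did not follow the steps (4812, 3211, 4109 and 5025 UMIs in the later year).

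Members with 1 selecting gene, almost always Mrc1, thus had little Lyve1, Pf4 or Ccl8 and the highest Ccr2. Retnla was also highest in them (95.8 and 96.2 UMIs per 10000, against 35.4 and 40.8 with 3 genes seen and 80.7 and 59.3 with 4), and so was the MHC class II sum (325 and 467, against 194 and 297 with 4). Over all members Ccr2 had a UMI in 57.9% and 47.1%, and in T cells, some of which express it, in 12.5% and 26.4%. These are cells split by the genes that chose them, given as a description with no test.

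**Figure D3:**
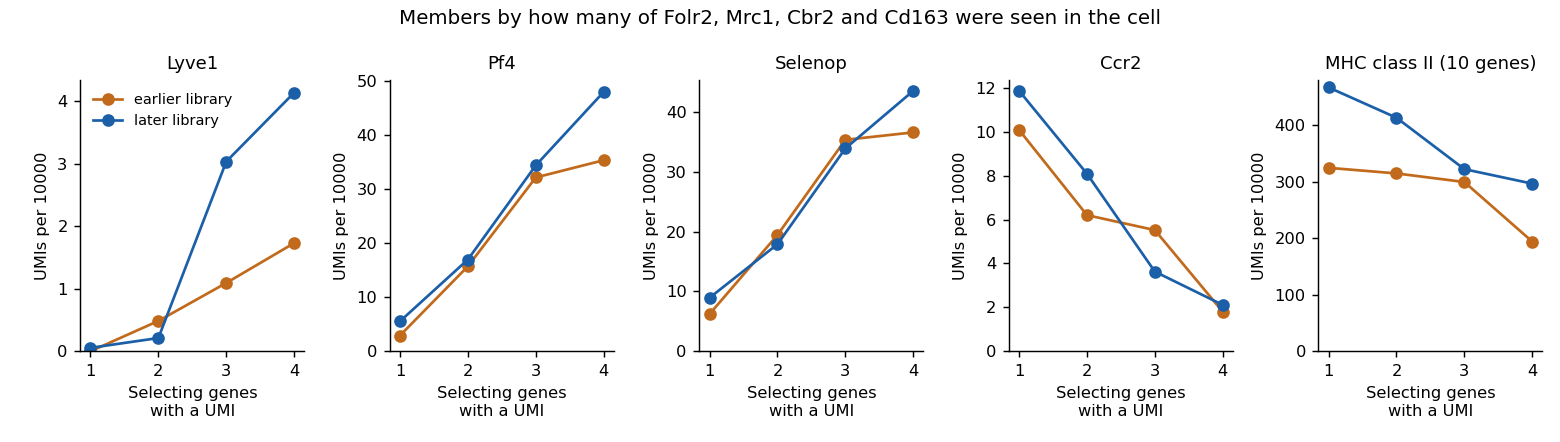
Levels of Lyve1, Pf4, Selenop, Ccr2 and the 10 MHC class II genes in members (vertical axes, UMIs per 10000) by how many of Folr2, Mrc1, Cbr2 and Cd163 had a UMI in the cell (horizontal axes), with 1 point per library (orange earlier, blue later). From 1 gene to 4, Pf4 goes from 5.56 to 48.1 and Ccr2 from 11.9 to 2.11 in the later year.

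Lyve1 and MHC class II genes were outside the rule and divide stromal macrophages of many tissues. A Lyve1 UMI was seen in 0 of 12 members in the earlier Gestation (which allows up to 26.5%), 4 of 41 in Nulliparous, 12 of 55 in Lactation and 3 of 42 on HT2 of that library. In the later year it was seen in 12 of 54 in Gestation, 5 of 30 in Lactation, 42 of 212 in Involution, 53 of 173 in Regression, 11 of 24 in Balb/c, 14 of 80 in GF and 109 of 274 on HT2. In T cells the share was 0.0821% and 1.77%. The share in members was 19.8% (14.7 to 25.8%) in Involution and 30.6% (23.9 to 38.1%) in Regression, and these intervals overlap. The highest values were in Balb/c (45.8%, 25.6 to 67.2%) and on the later HT2 (39.8%, 33.9 to 45.8%).

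Members with a Lyve1 UMI had less MHC class II RNA. With and without Lyve1 the 10 genes summed to 274 and 481 UMIs per 10000 in Involution, 289 and 406 in Regression, and 139 and 364 on the later HT2, the 3 samples with at least 20 members on each side. The mean difference was -183 ± 57.9 (SD, n = 3 samples), lower in 3 of 3. An exact two-sided sign-flip permutation test gave p = 0.25, the smallest it can give with n = 3, so it cannot pass 0.05. With at least 10 members on each side, a minimum chosen after seeing the data, the sum was lower in 7 of 7 samples (mean difference -225 ± 91.1, exact permutation p = 0.0156, the smallest possible with n = 7). Without HT2 it was lower in 6 of 6 (exact permutation p = 0.0312). The samples share 2 libraries, and the p-values measure only the spread between tag samples.

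In Involution, Regression and the later HT2, members with Lyve1 also had more Folr2 (14.7, 12.8 and 15.7 UMIs per 10000) than members without (3.73, 3.56 and 2.39). Cd209f, a lectin of the DC-SIGN family, was at 17, 13.8 and 18.6 with Lyve1 and 4.51, 6.35 and 2.31 without. Ccr2 was at 0.635, 1.43 and 1.75 with and 7.03, 5.09 and 9.32 without. Cbr2, Cd163, Pf4, Ccl8, Gas6 and Igf1 were higher with Lyve1 in 3 of 3 samples, while Retnla was higher in Regression only. Folr2, Cbr2 and Cd163 were used by the rule, so their levels here are a description and lend the split no weight. Median depths with and without Lyve1 were 4384 and 4404 UMIs in Involution and 5102 and 4019 on HT2.

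**Figure D4:**
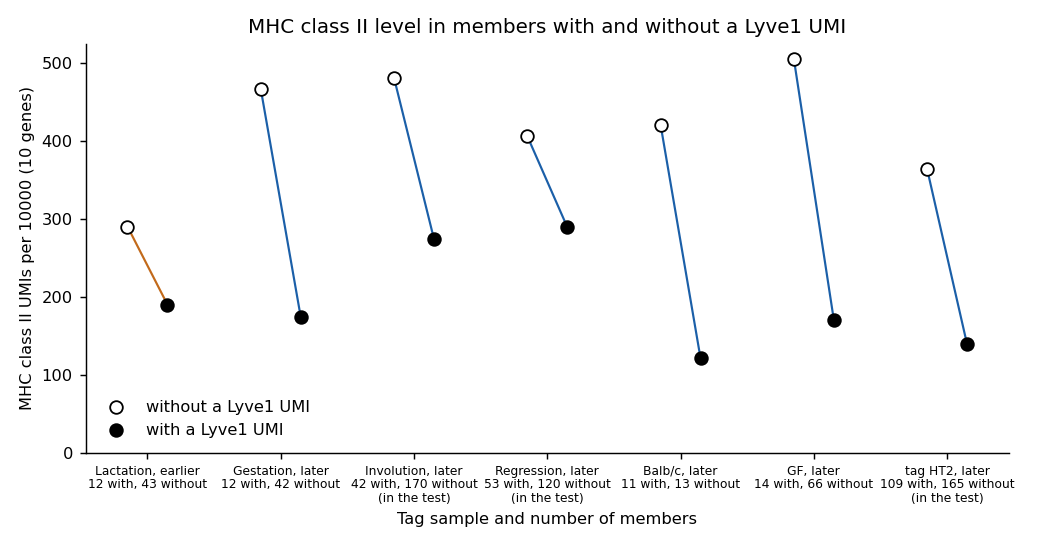
Sum of the 10 MHC class II genes in UMIs per 10000 (vertical axis) in members without (open) and with (filled) a Lyve1 UMI, joined within each tag sample that has at least 10 members on each side (horizontal axis, with cell numbers). The filled point is lower in 7 of 7 samples, and the 3 samples with at least 20 on each side are marked as those in the test.

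For a few genes, levels in members varied between tag samples beyond counting error, which leaves out the spread between cells. Retnla stood at 33.2 in Nulliparous, 1.53 in Gestation, 77.4 in Lactation and 159.6 UMIs per 10000 on HT2 in the earlier year. In the later year it was at 81.1 in Gestation, 106 in Lactation, 53.3 in Involution, 73.2 in Regression, 56.5 in Balb/c, 62.8 in GF and 71.5 on HT2. The 12 members of the earlier Gestation, with 5 UMIs, lay far below all other samples. The highest cell held over 25% of the Retnla UMIs in Nulliparous and 22.96% in the earlier Lactation. In the later year it held 21.08% in Gestation and 22.96% in Lactation. On the earlier HT2 the alternatively activated genes, Retnla among them, had 1754 UMIs but a median of 6 per member. The order of the samples was not tested against the spread between cells. In T cells of the later library Retnla had a UMI in 24.9% against 54% in members (4.57% against 44.2% in the earlier year), and the share in T cells is read as background.

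Ccl8 stood at 0.824, 0, 12.6 and 1.8 UMIs per 10000 in Nulliparous, Gestation, Lactation and HT2 of the earlier library. Its later values were 4.33 in Gestation, 10.1 in Lactation, 13 in Involution, 17.6 in Regression, 18.7 in Balb/c, 6.83 in GF and 9.09 on HT2. Gestation was the lowest sample of the later library. In the earlier one its 0 UMIs, where 3 counts are worth 0.916, cannot be ranked below Nulliparous. In the later year Lyve1 ranged from 0.603 in Lactation to 4.76 on HT2. Igf1 varied less (2.8 in Balb/c to 4.28 in Regression), although its counting intervals in these 2 samples did not overlap.

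**Figure D5:**
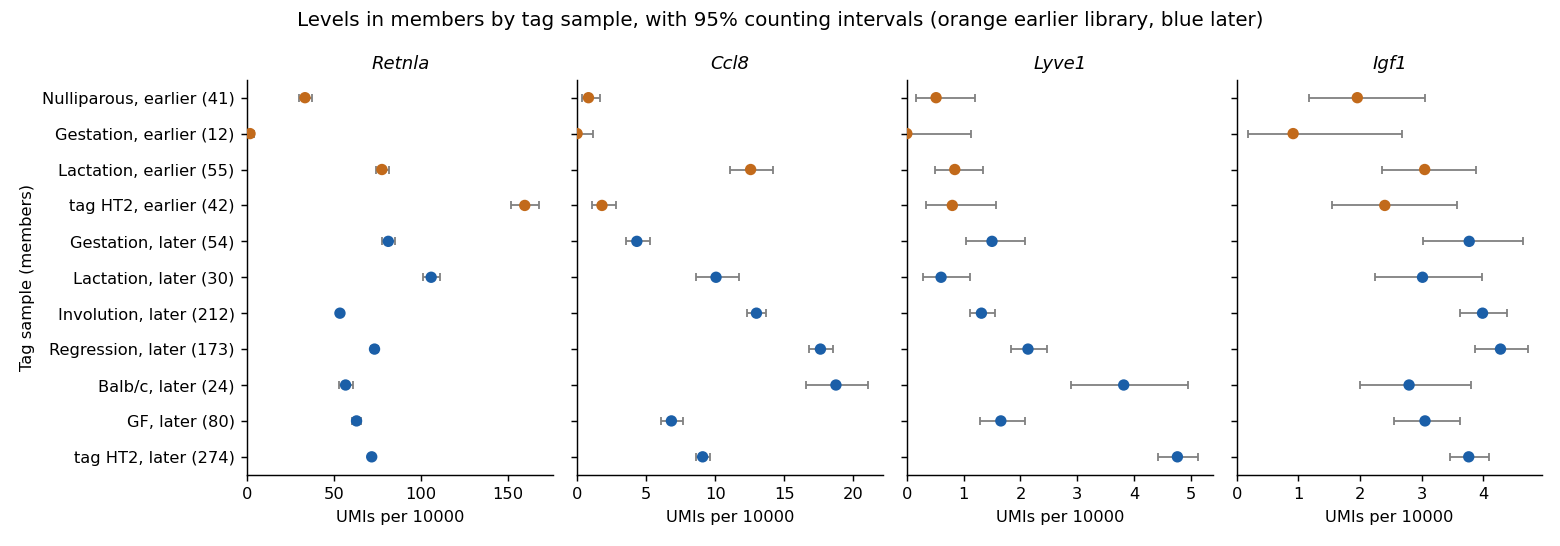
Levels of Retnla, Ccl8, Lyve1 and Igf1 in members (horizontal axes, UMIs per 10000 from 0) for the 11 tag samples (vertical axis, with the number of members), orange for the earlier library and blue for the later, with 95% Poisson counting intervals. Retnla is at 1.53 in the earlier Gestation and highest at 159.6 on the earlier HT2, and Ccl8 is highest in Balb/c at 18.7.

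Lactation was tested against Gestation over 4 sums of members (from 12 cells of Gestation and 55 of Lactation in the earlier year, 54 and 30 in the later) with edgeR's quasi-likelihood test, the library year as a block, and Benjamini-Hochberg adjustment over 3051 genes. It called 4 genes higher (0.131% of those tested) and 2 lower (0.0656%), and 107 genes had an unadjusted p under 0.05. Retnla was the only call in which no sum of at least 20 UMIs had over 25% from 1 cell: 5 and 1651 UMIs in the earlier Gestation and Lactation and 1893 and 1755 in the later, a log2 difference of 2.18 (SE 0.34, edgeR adjusted p = 3.82e-07, n = 2 sums a stage). Taken by library the difference was 5.57 and 0.38 on the log2 scale. The fit used a spread shared over genes, so this gap between the libraries need not show in the SE or p. The difference rests on the earlier Gestation: without that sample it was 0.34 (edgeR adjusted p = 0.998). Fits that leave out a sample have no block, since 3 sums with it leave nothing to estimate the spread from. The call was also lost without the earlier Lactation (log2 1.34) or the later (1.18), and it held in 5 of 14 alternatives. DESeq2 called 0 genes (9 at an unadjusted p under 0.05), as did edgeR without the block, a fit that leaves the year in the spread (75 at an unadjusted p under 0.05).

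In the other 5 calls, all of which are named here, more than 25% of a sample's UMIs came from 1 cell. Ccl8 (log2 2.09, SE 0.38, edgeR adjusted p = 4.97e-05) had 0 and 268 UMIs in the earlier Gestation and Lactation and 101 and 167 in the later, with up to 37.7% in 1 cell. It was at least 13.7-fold higher in the earlier Lactation, with Gestation set to 3 counts. Without each gene's highest cell it was again called higher (log2 1.70, edgeR adjusted p = 2.59e-04), and its call held in 8 of 14 alternatives. Without the earlier Lactation it was lost (log2 1.85, edgeR adjusted p = 0.0575). Stmn1, a microtubule regulator of dividing cells (log2 2.46), and Ednrb, an endothelin receptor (log2 1.79), were also called higher. Both had 0 UMIs in the earlier Gestation, and their calls held in 6 and 2 of 13 alternatives. With Gestation set to 3 counts, the ratio of the earlier Lactation to it was at least 0.87 for Stmn1 and 1.23 for Ednrb. The earlier library thus resolves no rise of Stmn1, and for Ednrb bounds it only at 1.23-fold. The antibody genes Igha (log2 -1.75) and Iglc1 (-1.97) were called lower, and 1 cell of the earlier Gestation held 98.3% of the Igha UMIs of that sample. Without that sample both had positive differences (log2 4.70 and 2.84). That fit has no block and sets the later Gestation against Lactation of both years, so the gap between the years enters these values. Within the later library the differences were -0.65 for Igha and -0.05 for Iglc1. For Ccl8, Stmn1 and Ednrb the fitted difference depends on how a count of 0 is treated.

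By list, stromal genes had a median log2 difference of 0.10 over the 26 of 28 that passed the filter on low counts, with 2 called higher (Ccl8 and Ednrb) and 0 lower, beside 0.02 over all genes tested. The ductal list had -0.03 over 13 genes and MHC class II -0.03 over 7, with 0 called in either. Of the interferon-stimulated genes 8 of 10 tested were above 0 (1599 of 3051 over all genes tested), with a median of 0.61 and 0 called. Ifi27l2a, the gene of that list with the most UMIs, was at 11 and 32.3 UMIs per 10000 in the earlier Gestation and Lactation and 18 and 30.2 in the later. The cell cycle list had 1.55 over 4 of 14 genes, with Stmn1 called. The 7 genes that chose the members were in the fit, with 0 called and a median of 0.04. The remaining lists had medians between -0.22 (iron handling) and 0.31 (alternatively activated genes), with Retnla the only call of the latter and Ccl8 that of the chemokines.

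Whether the difference between Lactation and Gestation was unlike that in other C1q cells was tested as an interaction in edgeR over 8 sums, with the tag sample as a block. It called 7 of 4268 genes (0.164%): Csn1s2a and Stmn1 had a larger and Cxcl9, Iglc1, Slpi, Fcrls and Itgam a smaller difference in members. Fcrls, an Fc receptor-like gene of macrophages, was at 1.83 and 2.72 UMIs per 10000 in members of the earlier Gestation and Lactation and 5.96 and 5.55 in the later. In other C1q cells it was at 0.0625 and 0.59, then 0.142 and 1.07. The Gestation sums of other C1q cells were 5 UMIs each, with 60% and 80% from 1 cell. The Fcrls call held in 1 of 4 alternatives, and DESeq2 gave an adjusted p of 0.841. Without each gene's highest cell 6 genes were called, 3 of them among the 7, and without the block 0 (85 at an unadjusted p under 0.05).

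The remaining stages had 1 tag sample each, so their levels were set side by side with no test, and a gene was counted when it had at least 20 UMIs in the higher sample and a ratio of at least 2. From Involution (212 members) to Regression (173), 172 of 6744 genes were higher (2.55%) and 163 lower (2.42%), with 85 and 33 of them resting on 1 cell. Genes of cell division were lower in Regression: 8 of the 11 cell cycle genes with enough UMIs, with 0 higher, and 4 of the 8 with over 25% of the UMIs in 1 cell. Cdk1, the kinase that drives mitosis, had 23 and 2 UMIs (0.214 and 0.0226 per 10000) in Involution and Regression, a ratio with an interval of 0.012 to 0.426. Kif11, a spindle motor, had 23 and 2 UMIs (0.214 and 0.0226 per 10000), and Nusap1, a spindle protein, 39 and 5 UMIs (0.363 and 0.0564 per 10000). Members with at least 2 UMIs of Mki67, Top2a, Birc5, Cdk1 and Ube2c together numbered 12 of 212 (5.66%, 2.96 to 9.68%) and 7 of 173 (4.05%, 1.64 to 8.16%), with intervals that overlap. At 1000 UMIs a cell the shares were 2.87% and 0.61%.

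Of the ductal list 4 of 19 genes with enough UMIs were lower in Regression and 1 was higher (Cd9, with over 25% of its UMIs in 1 cell). Acp5, the tartrate-resistant phosphatase, had 168 and 21 UMIs (1.56 and 0.237 per 10000) in Involution and Regression, and Cx3cr1 180 and 49 UMIs (1.68 and 0.553 per 10000). The other two, Dnase1l3 and Olfml3, had over 25% of their UMIs in 1 cell of Involution. Kcnj10, a potassium channel, had 33 and 2 UMIs (0.307 and 0.0226 per 10000), and Mmp13, a collagenase, 20 and 2 UMIs (0.186 and 0.0226 per 10000), which with Cdk1, Acp5, Kif11 and Nusap1 were the 6 largest ratios among genes with at most 25% of their UMIs in 1 cell. The 6 largest toward Regression under the same limit (Dpysl3, Gm48582, Rbsn, Adpgk, Cd28 and Arl10) had 20 to 40 UMIs there. Of the interferon-stimulated genes Ifit1, Ifit3 and Rsad2 were higher in Regression, Rsad2 with 33 and 67 UMIs (0.307 and 0.756 per 10000). Of the stromal list 2 of 27 genes with enough UMIs were higher in Regression (Cd209d and Fxyd2, 1 of them resting on 1 cell) and 0 lower. Folr2 among the selecting genes was at 5.81 and 6.47 per 10000, and Selenop at 31.9 and 32.1. Markers of other cells moved with this contrast: from Involution to Regression, fibroblast markers stood at 0.559 and 3.97 per 10000, neutrophil markers at 0.447 and 3.57 and epithelial markers at 0.0745 and 1.5. Without the highest cell the Regression values were 1.86, 0.477 and 0.0596, and the part of these cells in the ratios was not tested.

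From Lactation (30 members) to Involution (212), 699 of 6428 genes were higher (10.9%) and 25 lower (0.389%), and 14 and 17 of them rested on 1 cell. The totals were 165951 and 1073882 UMIs, and 20 UMIs are a higher level in the smaller sample. With a level worth 20 UMIs in the smaller sample, a criterion chosen after the totals were seen, 33 and 25 of 1371 genes were past 2-fold, so the uneven split is no result. Sgk1, a kinase induced by glucocorticoids, had 1 and 93 UMIs (0.0603 and 0.866 per 10000) in Lactation and Involution, a ratio with an interval of 2.52 to 574. Angptl4, an inhibitor of lipoprotein lipase, had 2 and 100 UMIs (0.121 and 0.931 per 10000). Sgk1 and Angptl4 were below a level worth 20 UMIs in the smaller sample (1.21 per 10000), so they are not among the 33. The milk genes Wap, with 52 and 122 UMIs (3.13 and 1.14 per 10000), and Csn1s2a, with 56 and 171 UMIs (3.37 and 1.59 per 10000), were lower in Involution. The 6 milk genes summed to 13.9 per 10000 in members of Lactation and 8.84 in those of Involution, while T cells of these samples had 191 and 7.87. Apart from that 191, T cells had 7.67 to 15.5 in every tag sample, and other C1q cells of the later Lactation had 8.77. How many cells the 191 came from was not examined. The part of free milk RNA in these levels was not tested. Of the 18 genes of the immediate early and heat shock list, 5 were higher in Involution (Atf3, Egr1, Fos, Ier3 and Nr4a1) and 0 lower. Beside them stand 10.9% and 0.389% over all genes. Fos was at 4.94 and 11.9, above the level worth 20 UMIs in the smaller sample. Whether the rest reach that level is not given here.

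From Nulliparous (41 members) to Gestation (12) in the earlier year, 9 of 597 genes were higher (1.51%), all 9 resting on 1 cell, and 112 lower (18.8%), 13 of them resting on 1 cell. With a level worth 20 UMIs in the smaller sample (32742 UMIs, against 97121) the counts were 9 and 14 of 184. Cd36, a fatty acid and scavenger receptor, had 39 and 1 UMIs (4.02 and 0.305 per 10000), a ratio of Gestation to Nulliparous with an interval of 0.00188 to 0.449. Emb, an adhesion protein, had 26 and 1 UMIs (2.68 and 0.305 per 10000), and Klf13, a transcription factor, 24 and 1 UMIs (2.47 and 0.305 per 10000). Cd36, Emb and Klf13 were below a level worth 20 UMIs in the smaller sample, so they are not among the 14. Mrc1, which the rule used, had 126 and 19 UMIs (13 and 5.8 per 10000). At 12 cells, only large differences could be seen in the earlier Gestation.

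Most markers of other cells were low in members, with exceptions that came from single cells to different degrees. T, B, ILC2, epithelial, NK, mast, migratory dendritic, endothelial, adipocyte and red cell markers each summed to at most 1.53 UMIs per 10000 in any tag sample, and the T and B sums are low by the rule. Plasma cell markers reached 92.2 in the earlier Gestation and 31.9 in the earlier Lactation, against 0.677 in the median sample. Without the highest cell, which held 99% and 35.1% of them, these were 1.41 and 21.5. Milk genes were at 66.3 in GF and 66.5 on the later HT2 and at 4.6 to 13.9 elsewhere, and without the highest cell at 15.2 and 6.82. Neutrophil markers reached 15.3 in the earlier Lactation, with 51.8% from 1 cell. Fibroblast markers were at 0 to 3.97 and higher than in other C1q cells in 9 of 11 samples. Markers of type 1 dendritic cells (cDC1) were at 0.801 to 3.67 and lower than in other C1q cells in 10 of 11. Those of type 2 (cDC2) were at 3.81 to 6.11 and higher in 10 of 11. Monocyte markers, which include Ccr2, ran from 3.55 in Balb/c to 11.6 in Nulliparous. They were higher than in other C1q cells in 7 of 11, with medians of 8.77 against 5.77. The part of these cells in the levels above was not tested beyond the values given without each gene's highest cell.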

How the data were processed

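The authors deposited raw UMI counts per gene and raw tag counts per barcode for 2 libraries of 10x Genomics 3' v3.1 chemistry. Cell Ranger 6.1.0 and mm10 are named in the submitters' processing notes, and the file header of the earlier library names Cell Ranger 4. The deposited count matrices have 1347735 and 21632 barcodes (earlier library first). Kept barcodes held 500 UMIs or more, 300 genes or more and no more than 10% mitochondrial UMIs. The libraries were matched by gene symbol (55253 unique symbols of 55487 entries). Members and gene lists were chosen with earlier results of these data known, and genes named outside the rule below were chosen after their values were seen.

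Tags were assigned with HTODemux in Seurat 5.3.0 (quantile 0.99), and cells with 1 tag form 11 tag samples, 1 per name and library. A plain tag rule (top tag with at least 5 counts and 3 times the next) was an alternative. Cells with several tags or none entered the values by library only. Scrublet ran in scanpy 1.11.5 at an expected rate of 0.08 and marked 7.86% and 6.87% of all cells. Its calls were left in, and removing them was an alternative. Intervals are exact binomial or Poisson, and ratios of shares have intervals on a log scale.

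Members' counts were summed per tag sample. Genes passing filterByExpr were tested in edgeR 4.0.16 (TMM, quasi-likelihood, year as block; R 4.3.3), with an adjusted p of 0.05 as the threshold, and the code was tested on simulated data. DESeq2 1.42.0, no block, other filters and leaving out each sample were alternatives. The year is the library, so it pairs Gestation and Lactation by design. Nothing states that tag samples come from separate animals, so p-values measure at most the spread between these sums. The stage fit took that spread from a trend shared over genes (infinite prior degrees of freedom for the median gene). A gene's own spread between the sums then does not enter its p. The SE of a log2 difference was worked back from that difference and the test's F statistic, so it carries the same shared spread. In the stage fit, genes were named if called with the same sign in both libraries and at most 25% of a sum's UMIs in 1 cell, and the calls resting on 1 cell were named too. In contrasts of 1 sample each, up to 6 genes each way with the largest ratio were named, and of each list the called genes and up to 4 with the highest level. The lists hold selecting, stromal, ductal, pan-macrophage, MHC class II, complement, scavenging, iron, chemokine, growth factor, transcription factor, alternatively activated, lipid, interferon-stimulated, cell cycle, immediate early and hormone receptor genes. Some genes of the lists are not reported here. Tag sequences come from the deposited tag reference.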

Additional observations from a re-analysis of the deposited data

Results flagged for a closer look

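In 7 genes the difference between Lactation and Gestation was not the same in members and in other C1q cells, by the interaction term in edgeR over 8 sums (Benjamini-Hochberg adjusted). Values below are the log2 difference in members minus that in other C1q cells, and UMIs are given for Gestation and then Lactation.

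Cxcl9, a chemokine induced by interferon gamma, gave -7.67 (edgeR adjusted p = 1.96e-06). Members had 0 and 2 UMIs in the earlier year and 99 and 2 in the later, and all 99 of the later Gestation were in 1 cell. Other C1q cells had 15 and 46 in the earlier year and 6 and 59 in the later, with 86.4% of the 59 in 1 cell. Iglc1, an antibody light chain, gave -6.33 (edgeR adjusted p = 8.04e-06), with 21 and 30 UMIs in the earlier year and 3 and 2 in the later in members. Other C1q cells had 309 and 5648 UMIs in the earlier year and 2 and 0 in the later, and 1 cell held 49.8% of the 5648. Slpi, a secreted protease inhibitor, gave -6.02 (edgeR adjusted p = 5.23e-05), and the 26 UMIs of members in the earlier Gestation were all in 1 cell. Other C1q cells had 27 and 61 UMIs in the earlier year and 1 and 16 in the later, all 16 in 1 cell.

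The milk gene Csn1s2a gave 2.60 (edgeR adjusted p = 0.0051), with 6 and 68 UMIs in the earlier year and 56 and 56 in the later in members and 533 and 115 UMIs in the earlier year and 272 and 29 in the later in other C1q cells, where 1 cell held 85.3% of the 272. Stmn1 gave 2.77 (edgeR adjusted p = 0.028), with 0 and 17 UMIs in the earlier year and 20 and 74 in the later in members and 29.4% to 50% of each sum above 0 in 1 cell. Fcrls gave -2.84 and Itgam, the CD11b chain, -2.92 (edgeR adjusted p = 0.028 for both). Itgam had 5 and 36 UMIs in the earlier year and 67 and 29 in the later in members and 13 and 40 UMIs in the earlier year and 5 and 24 in the later in other C1q cells. Without each gene's highest cell the calls of Cxcl9, Csn1s2a and Itgam were lost (log2 0.27, 1.09 and -2.61, edgeR adjusted p = 1, 1 and 0.273), those of Iglc1, Stmn1 and Fcrls were kept, and Slpi was not among the genes fitted. Csn1s2a, Fcrls and Itgam were each called in 1 of 4 alternatives, and Cxcl9, Iglc1 and Stmn1 in 2 of 4. Slpi was called in 2 of the 3 that fitted it.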

How the results depend on the processing

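The Lactation over Gestation ratio of member shares stayed within its own interval in 8 of 8 alternatives in either library (6.28 to 10.4 and 1.97 to 2.69). With cells thinned to 1000 UMIs, 9 of 11 shares left their interval, and by the plain tag rule 0 did. The 6 stage calls became 0 with DESeq2, 0 with no replicate block for the year, 0 with thinned cells (352 genes tested, 18 at an unadjusted p under 0.05), 1 with the plain tag rule, 3 without CT010467.1 and 14 with no low-count filter, and 15 to 26 with 1 sample left out, in fits without the block where the lone sample is assumed to vary like the rest. The 7 interaction calls became 0 with no replicate block for the tag sample, 2 with DESeq2 and 14 with no low-count filter. Directions turned for Igha (log2 0.86) and the Cxcl9 interaction (0.27) without the highest cell. With 1 sample left out Igha ran from -7.67 to 4.70 and Iglc1 from -4.39 to 2.84, both highest without the earlier Gestation. As those fits have no block, the gap between the years enters these values. The Lyve1 difference was -225 with at least 10 members a side, with or without HT2 (exact permutation p = 0.0156 and 0.0312), and -162 to -216 otherwise. Genes past 2-fold numbered 121 from Nulliparous to Gestation (20 at 50 UMIs, 23 at a level worth 20 UMIs in the smaller sample), 724 from Lactation to Involution (200 at 50 UMIs, 1157 without each gene's highest cell, 58 at that level) and 335 from Involution to Regression (77 at 50 UMIs). Where an alternative is not a change in the genes or samples entered, the cause was not tested. The 12 members of the earlier Gestation limit each comparison they enter.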

Other observations

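Among genes of alternative activation, Retnla was higher in members than in other C1q cells in 9 of 11 tag samples, with medians of 71.5 against 7.53 UMIs per 10000, but lower in the other two. Ear2, a ribonuclease gene, was near 0 in members of Balb/c (0.0682) and at 1.05 to 3.0 in the other samples of the later library, while Ednrb was highest in Balb/c (6.27, against 1.07 to 3.57 in the others of that library). Balb/c is 1 tag sample of 24 members, and its stage is not given in the sources used here. Arg1, the arginase gene often used as a marker of this state, was at 0 to 0.10 in members, and Chil3 at 0 to 0.653.

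Of the pan-macrophage genes Adgre1, Marcks and Itgam were higher in members in 11 of 11 samples and Tyrobp and Ctss lower in 11 of 11, Ctss (cathepsin S, which processes antigen) at 8.19, 11.9 and 18.9 against 16.8, 27.4 and 37.7. Members in cycle, by at least 2 UMIs of the 5 cycling genes, made up 0% to 11.9% by sample, and other C1q cells 1.83% to 30.4%. Members had the higher share in the earlier Lactation (3.64% against 1.83%), the earlier HT2 (11.9% against 9.33%) and Regression (4.05% against 3.57%). With cells thinned to 1000 UMIs the ranges were 0% to 10% and 0.962% to 17.5%, and members were lower in 10 of 11 samples. The sum of the 14 cell cycle genes, however, was higher in members in 5 of 11, and 0 of these genes were lower in all 11. The rule chose the 2 sets, so no test is given.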
